A study of Homo sapiens with 18 samples.

Results

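Drug efflux pumps of the ABC family were followed in 6 clones of RPE1, a human cell line derived from the retinal pigment epithelium and made immortal with telomerase, that had all come through the same treatment with an Aurora kinase inhibitor. The set holds 9 genes of the 57773 in the deposited table: ABCB1, ABCB4, ABCC1, ABCC2, ABCC3, ABCC4, ABCC5, ABCC10 and ABCG2. They were taken by name through their Ensembl identifiers, and 1 of them, ABCB1, was chosen by measured values of these libraries, since it was higher in every tetraploid clone than in its diploid partner. The tetraploid clones were 4N-1, 4N-2 and 4N-3, and the diploid clones were 2N-1, 2N-2 and 2N-3. Per the labels, growing cells of this line were exposed to 2.5 uM ZM447439 for 72 h, the survivors were grown on until they proliferated, and single-cell clones were then raised, with their DNA content measured by flow cytometry. Every clone, the diploid ones included, carries that treatment in its past, and no untreated culture was among the libraries analysed here. Each diploid clone came from the same plates as its tetraploid partner, which gives 3 pairs, and both clones of pair 2 had been stained with the dye Hoechst 33342 before they were sub-cloned. A ploidy is thus represented by 3 single-cell clones, each with 3 replicate libraries A, B and C (18 in all), which the series describes as biological replicates. They come from 1 clone each time. P-values within a pair thus rest on the spread between libraries of a clone, as 1 estimate per gene shared by all 6 clones. A library outside a pair can therefore change the p-values of that pair. Such a test is about the 2 clones of the pair.

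ABC transporters are membrane proteins that spend ATP to move substrates across a membrane, and those considered here carry drugs, dyes, conjugates or lipids out of the cell. P-glycoprotein, the product of ABCB1, is the classical pump of multidrug resistance in human cancer cells, and the product of ABCG2 was named for resistance in breast cancer cells. Both pumps are textbook exporters of Hoechst 33342 among many other compounds. The MRP proteins, the products of the ABCC genes, export organic anions and glutathione, glucuronate or sulphate conjugates, and the product of ABCB4 moves phosphatidylcholine into bile in the liver.

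Levels are given in reads per M, which are the whole reads recovered from the deposited RPKM values over the scaling factor of the library (M stands for mega, and 1 read was worth 0.0183 to 0.0277 reads per M). The libraries held 37.2 to 54.4 M reads in genes, and 30422 to 32408 genes were above 0. A log2 change is a difference of means of log2(reads per M + 0.1), which understates the change of genes with few reads. The tests covered 23416 genes, those that reached 10 reads in at least 3 libraries, and a gene passed at an adjusted p below 0.05 (limma, Benjamini-Hochberg over those genes). ABCB1 met that minimum in the 9 tetraploid libraries and in none of the 9 diploid ones, so it was in the fit only because it was high in the 4N clones. The 7 other tested members met it in all 18 libraries, and ABCB4 missed it. The libraries of 4N-2 stood apart on the first principal component (75.5 to 81.9, against -28.4 to -1.53 in the 15 others), and library A of 2N-3 stood apart on the second (-63.9, against -15.4 to 32.2). Of the 13 markers of retinal pigment epithelium, 5 averaged 1 or more reads per M (BEST1, RDH5, LRAT, MITF and OTX2), while RPE65, the isomerase of the visual cycle, reached a clone mean of 0.480 at most. Each list of markers of endothelial, blood, liver or pluripotent cells summed to at most 1.00 reads per M in any library, and HBB and CD3E had no read in any. The endothelial sum rests on 2 of 3 genes, CDH5 and VWF, since PECAM1 was not matched.

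ABCB1 lies on the minus strand of chromosome 7, from 87503633 to 87713323 (GRCh38, GENCODE v29; the submitters' processing notes name hg19 as the build of the alignment). RefSeq promoter windows (GRCh38.p14, 250 bases before a start and 50 after it) were found for 6 of the 9 members, and ABCB1, the member on which the results turn, has 2 of them, whose positions differ by 112 kb. They are shown because the table gives 1 value per gene, so that transcripts from the 2 starts cannot be told apart here. The downstream window is chr7:87600835-87601134 and the upstream one is chr7:87713246-87713545, both minus strand and written 5′ to 3′, with capitals marking CCAAT or its reverse complement ATTGG:
ABCB1, downstream start: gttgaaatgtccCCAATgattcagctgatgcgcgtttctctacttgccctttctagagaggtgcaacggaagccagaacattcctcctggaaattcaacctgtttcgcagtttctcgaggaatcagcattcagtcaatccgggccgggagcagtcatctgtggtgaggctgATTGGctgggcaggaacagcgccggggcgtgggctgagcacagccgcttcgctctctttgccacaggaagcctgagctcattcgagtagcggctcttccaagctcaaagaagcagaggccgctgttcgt
ABCB1, upstream start: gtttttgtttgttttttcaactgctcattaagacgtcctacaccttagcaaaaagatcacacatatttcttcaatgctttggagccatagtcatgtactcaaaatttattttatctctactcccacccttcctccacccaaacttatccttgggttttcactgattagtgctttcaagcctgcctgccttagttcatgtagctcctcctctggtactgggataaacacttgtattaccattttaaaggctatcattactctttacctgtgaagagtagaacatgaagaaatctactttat
The downstream window holds 2 such matches and the upstream window none, and 34.6% of all 35116 RefSeq windows of this length hold CCAAT on either strand. The 6 letters GGGCGG, searched on both strands, were in neither window and in 45.0% of all windows. The downstream window is 55.3% G or C and the upstream one 37.7%, beside a median of 58.7% over all windows. No match was tested for any role.

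ABCB1 and ABCB4 had the fewest reads of the pumps in the diploid clones, and ABCB1 stood higher in all 3 tetraploid clones, by amounts that differed between them. In pair 1 its libraries A, B and C held 2.21, 2.16 and 2.65 reads per M in 4N-1, against 0.0913, 0.120 and 0.108 in 2N-1. These rest on 93, 103 and 119 reads in 4N-1 and on 4, 5 and 4 reads in 2N-1. The clones did not overlap, and the summed reads gave a ratio of 22 (95% exact binomial interval 12.7 to 41.8, counting error only). In pair 2 the values were 0.355, 0.376 and 0.336 reads per M in 4N-2, against 0.0806, 0.0365 and 0 in 2N-2. Here 44 reads in 4N-2 stood against 6 in 2N-2, a ratio of 8.86 (3.76 to 25.4), again with no overlap between the clones. In pair 3 the values were 2.56, 3.00 and 3.24 reads per M in 4N-3, against 0.0554, 0.0469 and 0.0911 in 2N-3. That pair had the widest gap of the 3, with 366 reads in 4N-3 against 8 in 2N-3 and a ratio of 45.2 (22.7 to 106). The fitted log2 changes of 3.56, 1.75 and 4.21 (SE 0.20 each) are smaller than these ratios because of the added 0.1 reads per M. The ratios, their intervals and the fitted changes rest on the values that chose the gene, so they are a description with no test. The intervals pool the reads of 3 libraries and leave out the spread between them. With 0.5 reads per M added the fitted changes were 2.22, 0.67 and 2.60, and with 0.02 added 4.22, 2.95 and 5.16. The narrowest gap between the lowest tetraploid and the highest diploid library of a pair was that of pair 2, 0.336 against 0.0806 reads per M. In bulk RNA, more cells with the transcript and more transcript per cell cannot be told apart. Without both 2N-3 A and 4N-3 C the change in pair 3 was 4.10.

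**Figure D1:**
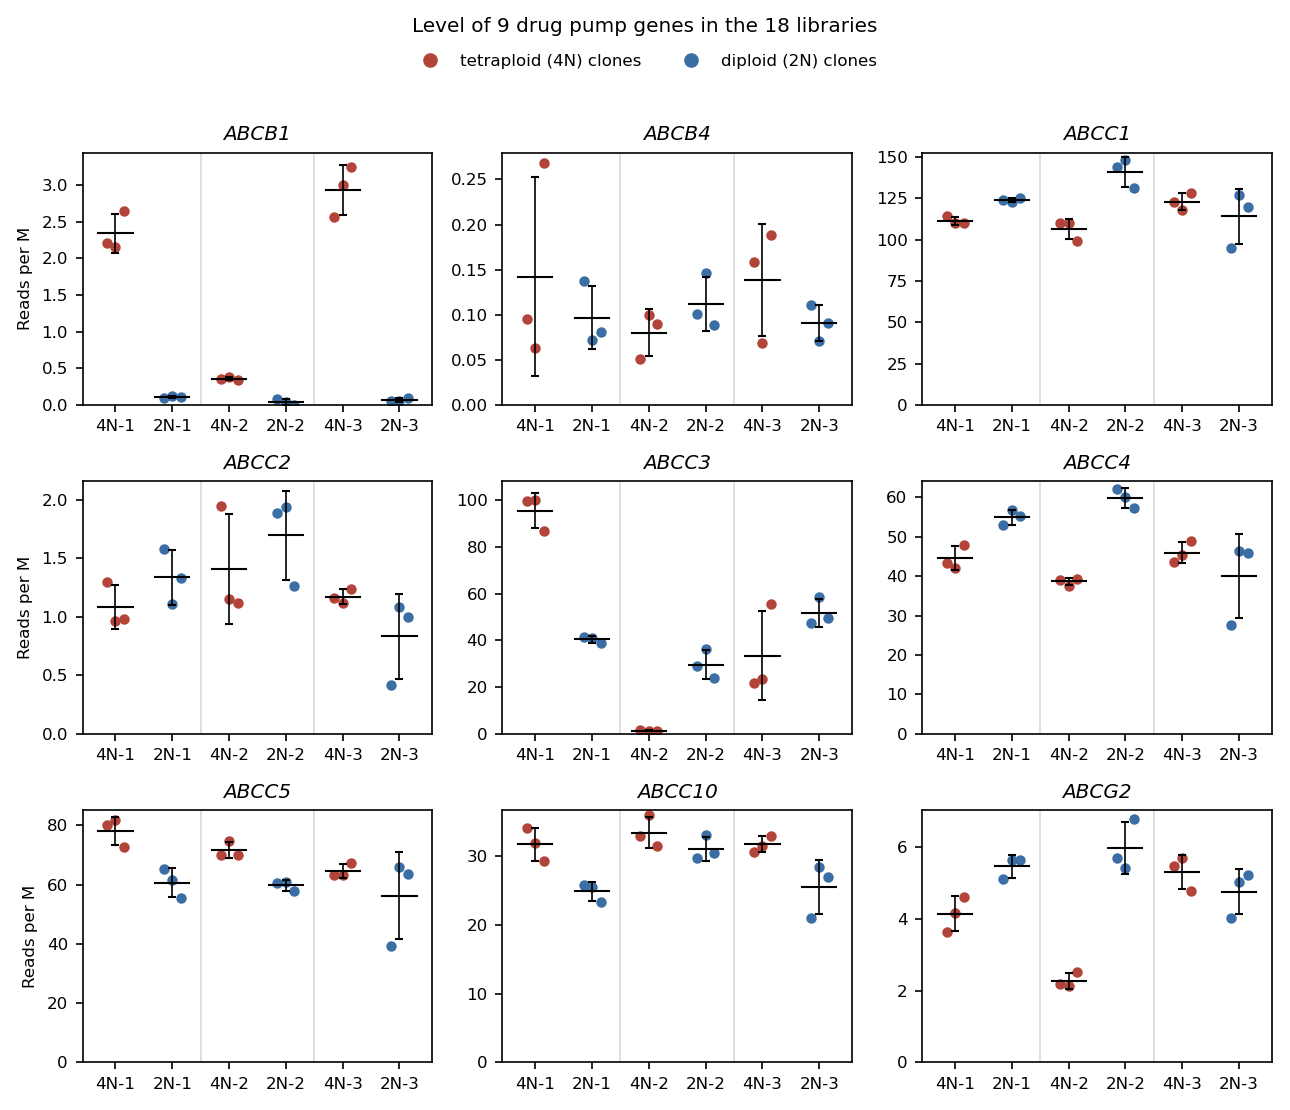
Reads per M of each of the 9 pump genes in the 18 libraries, with points for libraries A, B and C, bars for the clone mean and whiskers for 1 SD (n = 3), tetraploid clones in red and left of their diploid partners in blue; each panel has its own linear axis. ABCB1 is above 2 reads per M in every library of 4N-1 and 4N-3 and at most 0.120 in every diploid library, while ABCC3 averages 95.6 in 4N-1 and 1.20 in 4N-2.

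The level of ABCB1 also differed among the tetraploid clones, a comparison that did not enter its choice. 4N-3 was highest at 2.94 ± 0.345 reads per M, 4N-1 had 2.34 ± 0.272 and 4N-2 had 0.356 ± 0.02 (SD, n = 3 each). It was lower in 4N-2 than in 4N-1 by a log2 change of -2.42 (SE 0.20, limma adjusted p = 3.49e-08) and lower in 4N-2 than in 4N-3 by -2.73 (SE 0.20, limma adjusted p = 1.12e-08), in all 3 libraries of 4N-2 each time. 4N-3 and 4N-1 did not differ beyond their spread (0.31, SE 0.20, limma adjusted p = 0.322), and their libraries overlapped. Among the diploid clones, 2N-1 had 0.107 ± 0.0146, 2N-3 had 0.0645 ± 0.0235 and 2N-2 had 0.0390 ± 0.0403 reads per M. None of their 3 differences passed, with limma adjusted p of 0.176 for 2N-2 minus 2N-1, 0.340 for 2N-3 minus 2N-1 and 0.445 for 2N-3 minus 2N-2. These diploid values rest on 0 to 5 reads per library, so a difference between diploid clones was hardly detectable at this depth. A call in either direction was common between the 4N clones: 47.9% of all tested genes passed for 4N-2 minus 4N-1, 35.8% for 4N-2 minus 4N-3 and 15.6% for 4N-3 minus 4N-1. It was rarer between the 2N clones, at 2.6% for 2N-2 minus 2N-1, 1.97% for 2N-3 minus 2N-1 and 3.48% for 2N-3 minus 2N-2.

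ABCB4, the neighbour and closest relative of ABCB1, stayed at a few reads in all clones. It lies on the same strand of chromosome 7, from 87401697 to 87480435. Its libraries held 0.0949, 0.0630 and 0.268 reads per M in 4N-1, against 0.137, 0.0723 and 0.0812 in 2N-1. In pair 2 they held 0.0507, 0.1 and 0.0897 in 4N-2, against 0.101, 0.146 and 0.0883 in 2N-2, and in pair 3 they held 0.158, 0.0688 and 0.188 in 4N-3, against 0.111, 0.0703 and 0.0911 in 2N-3. The clones overlapped in each pair. The ratios of summed reads were 1.44 (95% exact binomial interval 0.662 to 3.25) in pair 1, 0.711 (0.291 to 1.64) in pair 2 and 1.53 (0.675 to 3.61) in pair 3. These ratios rest on 2 to 12 reads per library. Reads that map to both relatives could be split between them, and how such reads were counted is not given in the sources used here.

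The genes around ABCB1 and ABCB4 moved in both directions. The 10 tested genes on each side span 5.27 Mb of chromosome 7, from 84939349 to 90211635. In pair 1, none of the 20 rose and 3 fell: DBF4, a regulator of the replication kinase CDC7 (-1.03, SE 0.15), and the processed pseudogenes HNRNPA1P8 (-0.42, SE 0.09) and KPNA2P2 (-0.90, SE 0.24). Over all tested genes 9.88% rose and 9.15% fell in that pair. DBF4 averaged 16.5 ± 1.09 reads per M in 4N-1 and 33.9 ± 2.64 in 2N-1 (SD, n = 3 each). In pair 2, 4 rose and 4 fell, beside 19.9% and 21.3% of all tested genes. The genes that rose were CROT (0.47), SRI (0.50), TP53TG1 (0.57) and STEAP2-AS1 (0.65), and those that fell were SEMA3D (-0.90), ADAM22 (-0.48), HNRNPA1P8 (-0.31) and EIF4A1P13 (-0.65). CROT encodes a peroxisomal carnitine acyltransferase, and SRI encodes sorcin, a calcium-binding protein. In pair 3, 2 passed as higher and none as lower, beside 3.57% and 3.14% of all tested genes: CROT rose by 0.34 (SE 0.10), and AC002127.2 averaged 0.716 ± 0.402 reads per M in 4N-3 and 0.0620 ± 0.0717 in 2N-3. AC002127.2 reached 10 reads in all 3 libraries of 4N-3 and in 1 other library, so it was tested only because it was high there. The medians over the 20 neighbours were -0.04, -0.18 and 0.02 in pairs 1, 2 and 3, beside 0.02, -0.02 and 0.01 over all tested genes. Of the neighbours that did not pass in any pair, AC074183.1, HSPA8P16, DYNLL1P7, AC005076.1, DMTF1, TMEM243, SLC25A40, AC003991.1 and STEAP4, the changes lay between -0.81 and 0.43. A further gene, RUNDC3B, lies on the opposite strand and overlaps 85776 bases of ABCB1. It held at most 0.336 reads per M, too few reads to be tested, and whether counting used the strand is not given in the sources used here.

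**Figure D2:**
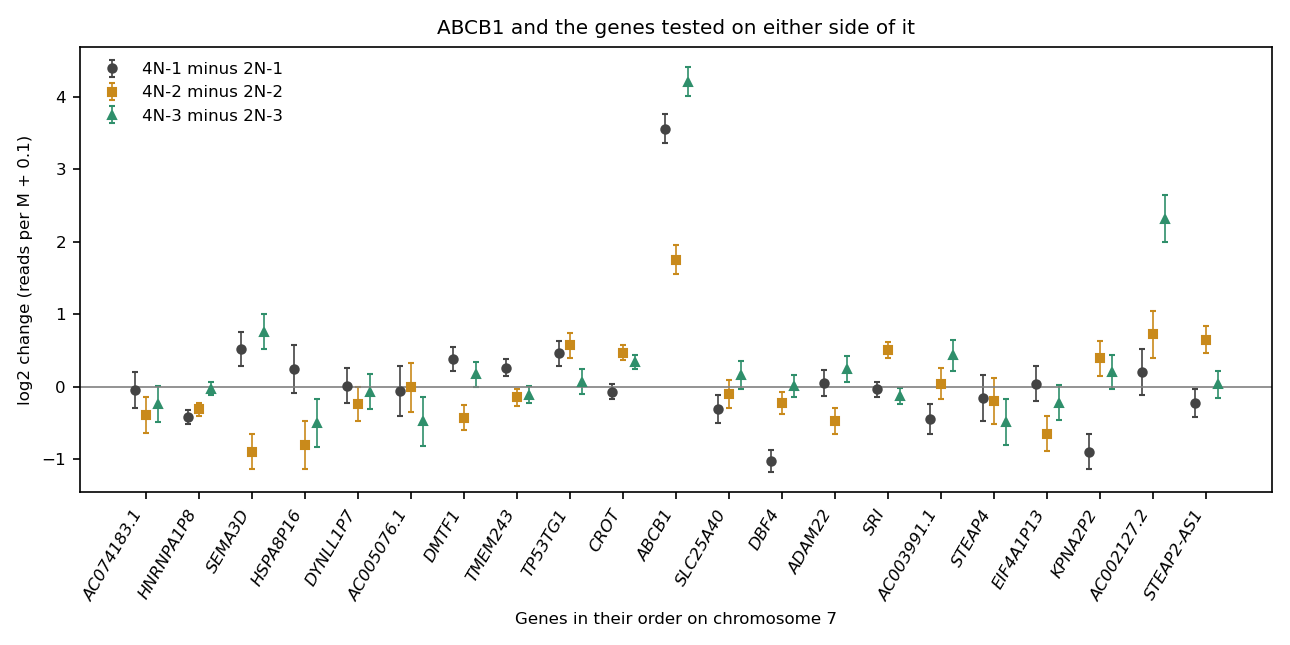
Log2 change (reads per M + 0.1) of ABCB1 and the 10 tested genes on each side of ABCB1 and ABCB4, in their order on chromosome 7, with whiskers for 1 SE and a symbol for each pair (4N minus 2N); ABCB4 had too few reads to be tested and is not drawn. ABCB1 stands at 3.56, 1.75 and 4.21, while the 20 neighbours lie between -1.03 and 0.52 in pair 1 and between -0.90 and 0.72 in pair 2, and AC002127.2 reaches 2.32 in pair 3.

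Across libraries, the genes with a pattern most like that of ABCB1 were taken from the 16190 tested genes with a symbol and a mean of 1 or more reads per M. The highest Pearson r over the 18 libraries was 0.964, for ADGRV1, a large adhesion G protein-coupled receptor. ADGRV1 averaged 7.34 reads per M in 4N-1 against 0.806 in 2N-1, 0.891 in 4N-2 against 0.471 in 2N-2, and 7.41 in 4N-3 against 0.735 in 2N-3. It was thus high in the same 2 clones as ABCB1, and its mean in 4N-2 was near those of the diploid clones. HSDL1 (r = 0.956) and MBTPS1 (r = 0.935), both on chromosome 16, followed, and then ACTA2, smooth muscle actin (r = 0.927), and CLIC2 on the X chromosome (r = 0.926). ACTA2 averaged 174 reads per M in 4N-1 against 34.9 in 2N-1, 48.3 in 4N-2 against 32.9 in 2N-2, and 101 in 4N-3 against 36.8 in 2N-3. These r describe 18 libraries of 6 clones that share scaling factors and are given as a description with no p. The genes were picked for their likeness to ABCB1, so a shared order of the clones is no separate result.

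ABCC3 varied most among the other members, by a span of 6.21 in log2 clone means, and it moved in opposite directions in pairs 1 and 2. It encodes MRP3, an exporter of bile acid and glucuronate conjugates, and lies on chromosome 17 from 50634777 to 50692252. In pair 1 it held 99.8, 100 and 87.0 reads per M in 4N-1, against 41.4, 41.1 and 38.8 in 2N-1. It rose by 1.24 (SE 0.25, limma adjusted p = 0.00187), with no overlap. In pair 2 it held 1.42, 1.18 and 1.01 reads per M in 4N-2, against 29, 36.1 and 23.7 in 2N-2. It fell by 4.50 (SE 0.25, limma adjusted p = 2.33e-10), a ratio of 0.0398 in summed reads (95% exact binomial interval 0.0336 to 0.0469), and 4N-2 had the lowest ABCC3 of the 6 clones. In pair 3 it held 21.5, 23.5 and 55.4 reads per M in 4N-3, against 47.5, 58.7 and 49.4 in 2N-3. Library C of 4N-3 was within the diploid range while A and B were below it, and the change of -0.76 did not pass (SE 0.25, limma adjusted p = 0.0814). Leaving out 1 library at a time gave changes of -1.20 to -0.52, and only the fit without library C of 4N-3 passed (-1.20, limma adjusted p = 8.95e-05). Without that library and library A of 2N-3 the change was -1.26 (limma adjusted p = 3.23e-06). Library C was the one that differed in this gene, so leaving it out had to enlarge the change and narrow the spread. These p-values are therefore no separate support for a fall of ABCC3 in pair 3. Among 4N clones it was lower in 4N-2 than in 4N-1 by -6.21 and than in 4N-3 by -4.56, and lower in 4N-3 than in 4N-1 by -1.65 (SE 0.25 each), and all 3 differences passed (limma adjusted p = 4.02e-12, 2.40e-10 and 0.000271). None of its 3 differences between diploid clones passed, at -0.47 for 2N-2 minus 2N-1, 0.35 for 2N-3 minus 2N-1 and 0.82 for 2N-3 minus 2N-2. The last of them passed without library C of 4N-3 (0.82, limma adjusted p = 0.00159). That library belongs to neither clone, and leaving it out lowered the shared estimate of the spread.

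The genes most like ABCC3 over the 18 libraries were P3H2 (r = 0.992), GBP2 (r = 0.991), KLKB1 (r = 0.990), AC098850.4 (r = 0.987) and GBP1 (r = 0.986). GBP1 and GBP2 encode guanylate-binding proteins, known as targets of interferon, and P3H2 encodes a collagen prolyl hydroxylase. GBP2 averaged 31.4 reads per M in 4N-1 against 20.8 in 2N-1, 2.65 in 4N-2 against 20.0 in 2N-2, and 19.9 in 4N-3 against 21.2 in 2N-3. All 5 were lowest in 4N-2 and highest in 4N-1, as ABCC3 was. They were picked for their likeness to ABCC3 in these libraries, so that shared order is no separate result.

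ABCG2 was lowest in 4N-2. The gene, which encodes the pump BCRP, lies on chromosome 4 from 88090264 to 88231322. Its libraries held 2.18, 2.13 and 2.53 reads per M in 4N-2, against 5.70, 5.42 and 6.80 in 2N-2. It fell by 1.35 in that pair (SE 0.13, limma adjusted p = 3.35e-07), with no overlap. In pair 1 it held 3.65, 4.18 and 4.62 in 4N-1, against 5.11, 5.66 and 5.66 in 2N-1, and fell by 0.40 (SE 0.13, limma adjusted p = 0.0459). That call ended without any filter (limma adjusted p = 0.0688) and in 11 of 18 fits that left out 1 library (-0.48 to -0.31). In pair 3 the values were 5.49, 5.69 and 4.77 in 4N-3, against 4.04, 5.04 and 5.22 in 2N-3, which overlapped (0.16, SE 0.13, limma adjusted p = 0.485). Among 4N clones it was lower in 4N-2 than in 4N-1 (-0.83, SE 0.13, limma adjusted p = 5.82e-05) and than in 4N-3 (-1.18, SE 0.13, limma adjusted p = 1.89e-06). The clone with the least ABCG2 and ABCC3 was thus also the 4N clone with the least ABCB1, and it is the tetraploid clone of the Hoechst-stained pair. The diploid clone of that pair, 2N-2, was stained as well and averaged 29.6 ± 6.22 reads per M of ABCC3. Between this pair and the others, the staining and the identity of the clones cannot be told apart. A part of the staining in these levels was not tested. ABCG2 averaged 2.28 ± 0.220 reads per M in 4N-2 and 5.97 ± 0.728 in 2N-2 (SD, n = 3 each). Tissue markers moved in this pair as well: RDH5 averaged 124 ± 5.93 reads per M in 4N-2 and 25.5 ± 1.38 in 2N-2, THY1, a surface protein of mesenchymal cells, 827 ± 20.7 in 4N-2 and 299 ± 6.06 in 2N-2, and OTX2 26.9 ± 4.55 in 4N-2 and 45.0 ± 2.32 in 2N-2 (SD, n = 3 each). Of the 13 pigment epithelium markers, 9 could be tested in pair 2, of which 3 rose and 4 fell. RPE65 was among the 9 only because it reached 10 reads in the 3 libraries of 4N-1, and it did so in no other clone. Over all tested genes, 19.9% rose and 21.3% fell in pair 2. THY1 was the 1 that rose of 5 mesenchymal markers, of which 3 fell (COL1A1 -0.87, COL1A2 -1.82 and PDGFRB -0.97), with a median of -0.87. The part of these shifts in the changes of the pumps was not tested.

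Of the other MRP genes, ABCC1 and ABCC4 fell in pair 2. ABCC1 encodes MRP1, an exporter of glutathione conjugates and of several cancer drugs, and lies on chromosome 16 from 15949577 to 16143074. It held 110, 110 and 99.4 reads per M in 4N-2, against 144, 148 and 131 in 2N-2, a change of -0.40 (SE 0.09, limma adjusted p = 0.00200). In pairs 1 and 3 the changes were -0.15 and 0.12 and did not pass (limma adjusted p = 0.295 and 0.458), and that of pair 3 was -0.01 without 2N-3 A. ABCC4 encodes MRP4, an exporter of cyclic nucleotides and prostaglandins, and lies on chromosome 13 from 95019829 to 95301475. It held 39.1, 37.6 and 39.3 reads per M in 4N-2, against 62.2, 60.1 and 57.2 in 2N-2, a change of -0.63 (SE 0.14, limma adjusted p = 0.00148). Its changes of -0.30 in pair 1 and 0.24 in pair 3 did not pass (limma adjusted p = 0.148 and 0.315), and that of pair 3 was likewise -0.01 without 2N-3 A. ABCC4 was also lower in 2N-3 than in 2N-2 (-0.62, SE 0.14, limma adjusted p = 0.0163). Library A of 2N-3 held 27.6 reads per M of ABCC4 and the other libraries of that clone 46.2 on average, and the call ended without library A of 2N-2 (limma adjusted p = 0.0824) or B of 2N-2 (limma adjusted p = 0.0666).

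ABCC10 and ABCC5 differed little between clones. ABCC10 encodes MRP7, known to export taxanes, and lies on chromosome 6 from 43427366 to 43450430. It held 34.0, 31.9 and 29.2 reads per M in 4N-1, against 25.8, 25.5 and 23.3 in 2N-1, and rose by 0.35 (SE 0.10, limma adjusted p = 0.0254). That call ended with total reads as the library size (0.27, limma adjusted p = 0.127) and in 4 of 18 fits that left out 1 library. The change was 0.33 in pair 3 (limma adjusted p = 0.0720), with no overlap, and 0.11 in pair 2 (limma adjusted p = 0.449). DLK2, on the opposite strand, overlaps 79 bases of ABCC10 and held at most 1.48 reads per M. ABCC5 encodes MRP5, an exporter of cyclic nucleotides, and lies on chromosome 3 from 183919934 to 184018015. It held 80.0, 81.6 and 72.5 reads per M in 4N-1, against 65.3, 61.4 and 55.3 in 2N-1, and 70.1, 74.8 and 69.9 in 4N-2, against 60.4, 61.0 and 57.7 in 2N-2. The libraries of these pairs did not overlap, yet the changes of 0.36 and 0.26 did not pass (SE 0.14 each, limma adjusted p = 0.0761 and 0.142). In pair 3 it held 63.2, 63.2 and 67.3 in 4N-3, against 39.3, 65.8 and 63.6 in 2N-3, and the change of 0.24 (limma adjusted p = 0.314) was -0.03 without both 2N-3 A and 4N-3 C.

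ABCC2, which encodes MRP2, the conjugate pump of the apical membrane of liver cells, was low in all clones. It lies on chromosome 10 from 99782640 to 99852594. It averaged 1.08 ± 0.192 reads per M in 4N-1 and 1.34 ± 0.234 in 2N-1, 1.41 ± 0.470 in 4N-2 and 1.70 ± 0.379 in 2N-2, and 1.18 ± 0.0618 in 4N-3 and 0.832 ± 0.363 in 2N-3 (SD, n = 3 each). No pair passed, with changes of -0.28, -0.27 and 0.54 (SE 0.28 each, limma adjusted p = 0.558, 0.477 and 0.254). Library A of 2N-3 held 0.415 reads per M, below all other libraries, and without it and library C of 4N-3 the change in pair 3 was 0.13.

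**Figure D3:**
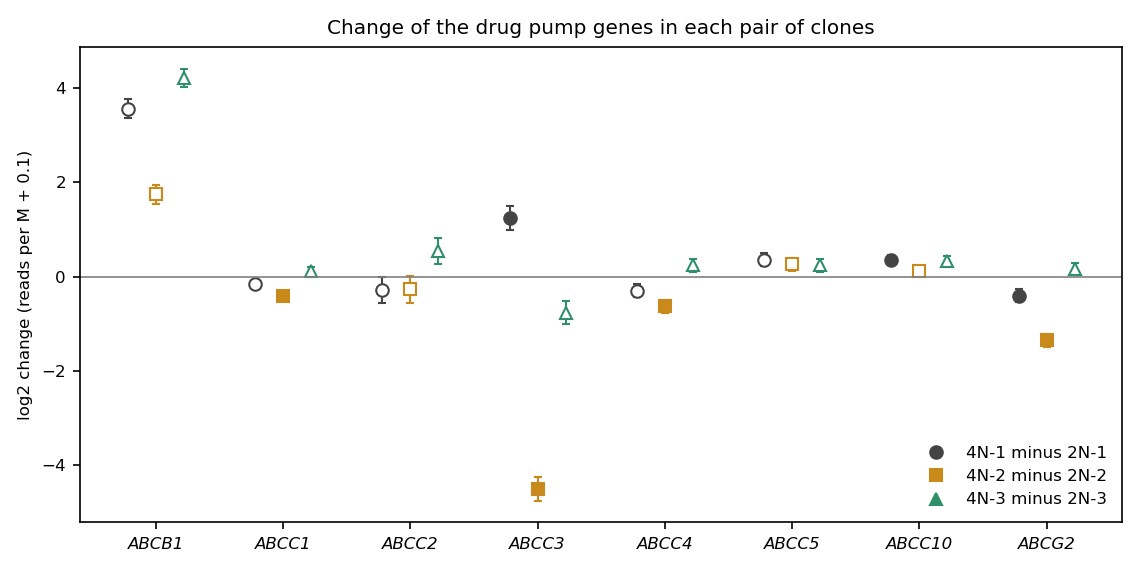
Log2 change (reads per M + 0.1) of the 8 pump genes with enough reads to be tested, with whiskers for 1 SE and a symbol for each pair (4N minus 2N); filled symbols passed at an adjusted p below 0.05, open symbols did not, and ABCB1, also drawn open, was not tested in these pairs. ABCC3 lies at 1.24, -4.50 and -0.76 in pairs 1, 2 and 3, and ABCG2 at -0.40, -1.35 and 0.16.

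Counted together, the calls of the 7 tested members other than ABCB1 went both ways in pair 1 and only down in pair 2. In pair 1, ABCC3 and ABCC10 rose and ABCG2 fell, where 9.88% of all tested genes rose and 9.15% fell. Of the genes that passed in that pair 51.9% were higher, and 34.8% with total reads as the library size. In pair 2, none rose and 4 fell (ABCC1, ABCC3, ABCC4 and ABCG2), where 19.9% of all tested genes rose and 21.3% fell. Of the genes that passed in pair 2, 48.3% were higher, and 57.3% on the RPKM scale. In pair 3, none passed, where 3.57% rose and 3.14% fell. The median change of the 7 was -0.15, -0.40 and 0.24 in pairs 1, 2 and 3, and that of all tested genes was 0.02, -0.02 and 0.01. Nothing is read from these counts about the family, since its members were picked with the data known and ABCB1 was picked on these same contrasts. Library A of 2N-3 was below the mean of B and C for each of these 7 genes, by a log2 difference of -1.14 for ABCC2, -0.74 for ABCC4 and -0.72 for ABCC5 and by -0.40 to -0.18 for the others, while the median over all tested genes was -0.01. With 2N-3 A and 4N-3 C both left out, the estimate of the spread was smaller and more genes passed. In pair 1, ABCC3, ABCC5 and ABCC10 then rose and ABCC1, ABCC4 and ABCG2 fell, beside 20.8% of all tested genes that rose and 19.2% that fell. In pair 2, ABCC5 rose and ABCC1, ABCC3, ABCC4 and ABCG2 fell, beside 28.3% that rose and 29.5% that fell. In pair 3, none rose and ABCC3, the gene in which 4N-3 C itself stood apart, fell, beside 10.3% that rose and 7.84% that fell.

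With the clone as the replicate, 3 tetraploid against 3 diploid clones and the pair as a block, no gene passed: 0 of 23416 (0%) were higher and 0 (0%) were lower by limma. An unadjusted p below 0.05 was found for 1068 genes (4.56%), a share no higher than that threshold itself. Limma-voom on the recovered reads also gave 0 passing genes. The lowest adjusted p of any gene was 0.0763. The changes of the 7 members across clones were -1.34 (SE 1.03) for ABCC3, -0.53 (SE 0.32) for ABCG2, -0.23 (SE 0.20) for ABCC4, -0.15 (SE 0.15) for ABCC1, 0.29 (SE 0.12) for ABCC5, 0.26 (SE 0.14) for ABCC10 and 0.00 (SE 0.27) for ABCC2. None of these had an unadjusted p below 0.05. ABCB1 changed by 3.17 (SE 0.49) on that scale, given with no test.

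Levels of different genes were compared per kb of exon, since the deposited values divide by the whole genomic span. ABCC1 had the highest level per kb of exon in every clone, at 14.1 to 18.6 reads per M per kb of exon, and made up 35.1% to 47.6% of the sum over the 9 genes. This order depends on the length used: in deposited RPKM, per genomic span, ABCC10 was above ABCC1 in 18 of 18 libraries, and the highest member was ABCC10 in 15 libraries and ABCC3 in 3. Whether reads in introns were counted is not given in the sources used here. Per kb of exon, ABCC4, ABCC5 and ABCC10 lay between 3.08 and 6.93 in every clone. ABCC3 spanned the widest range, from 9.94 in 4N-1, where it was second, to 0.125 in 4N-2, below ABCC2. ABCB1 reached 0.403 in 4N-1 and 0.506 in 4N-3, which was 0.961% and 1.39% of the sum, and 0.0613 in 4N-2. In the diploid clones it was 0.0184 in 2N-1, 0.00672 in 2N-2 and 0.0111 in 2N-3, close to ABCB4 at 0.0125, 0.0145 and 0.0117. Even in the clones with most ABCB1, its level per kb of exon was below that of ABCG2, at 0.822 in 4N-1 and 1.05 in 4N-3. The sum over the 9 genes was 41.9 in 4N-1 and 36.5 in 2N-1, 29.8 in 4N-2 and 39.1 in 2N-2, and 36.3 in 4N-3 and 34.3 in 2N-3. These are messenger RNA levels, and neither pump protein nor drug export was measured.

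**Figure D4:**
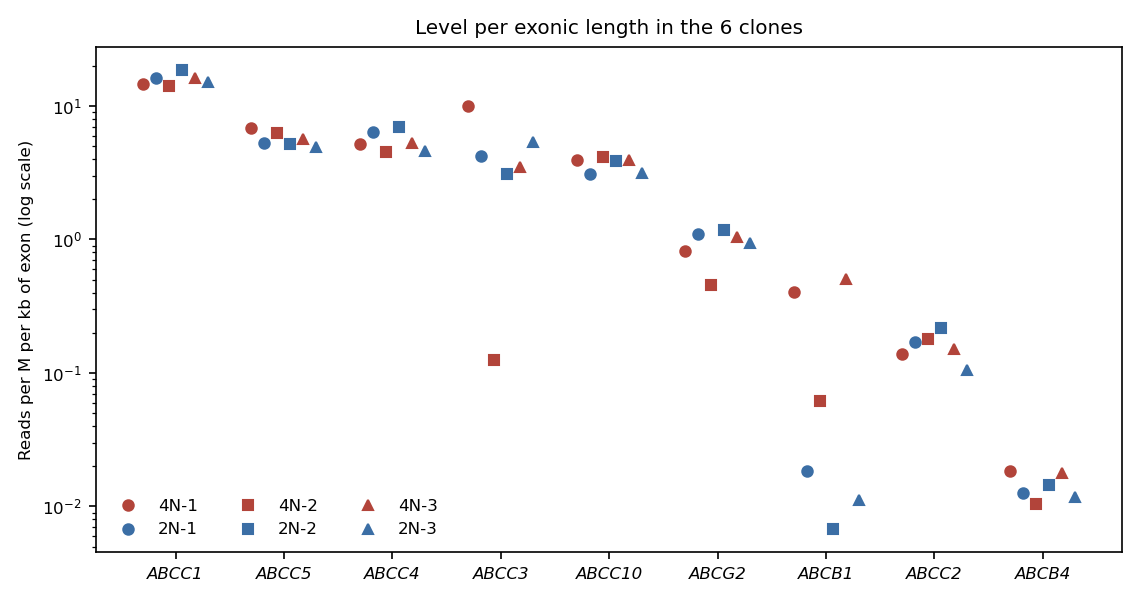
Mean reads per M per kb of exon (log axis) of the 9 pump genes in the tetraploid clones (red) and diploid clones (blue), with a symbol shape for each pair, genes ordered by their mean. ABCC1 is at the top in all clones, and ABCB1 and ABCC3 have the widest spread between clones.

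Other genes of drug transport were counted from lists chosen with the data known, and each count is to be read against the shares of all tested genes that rose and fell. Of 33 tested genes among the 39 other ABC transporter genes, the genes that rose against those that fell numbered 7 against 4 in pair 1, 7 against 10 in pair 2 and 2 against 2 in pair 3. Over all tested genes 9.88% rose and 9.15% fell in pair 1, 19.9% and 21.3% in pair 2, and 3.57% and 3.14% in pair 3. The largest changes were in ABCA6, ABCA8 and ABCA9, neighbouring relatives on chromosome 17 between which the counting could split reads, and in ABCD2, which encodes a peroxisomal fatty acid transporter. ABCA6 averaged 3.76 ± 1.55 reads per M in 4N-2 and 44.5 ± 6.78 in 2N-2 and fell by 3.61 (SE 0.35), and ABCA9 averaged 1.60 ± 0.658 in 4N-2 and 15.8 ± 2.85 in 2N-2 and fell by 3.30 (SE 0.41). ABCA8 averaged 0.772 ± 0.179 in 4N-1 and 10.4 ± 0.379 in 2N-1 and fell by 3.61 (SE 0.30). ABCD2 fell in pair 2 (-1.84) and rose in pair 3 (1.29).

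Of 17 tested drug uptake carriers out of 26, pair 1 had 3 genes that rose against 5 that fell, pair 2 had 6 against 5, and pair 3 had 3 against 3. The shares of all tested genes were 9.88% and 9.15% in pair 1, 19.9% and 21.3% in pair 2, and 3.57% and 3.14% in pair 3. SLCO1B3, an organic anion uptake carrier best known from liver cells, was among the genes counted as higher in each pair. Like ABCB1, it reached 10 reads in the 9 tetraploid libraries and in no diploid one, so it was in the fit only because it was high there, and its values are given with no test. It averaged 1.48 ± 0.263 reads per M in 4N-1 and 0.0720 ± 0.0468 in 2N-1, 1.25 ± 0.0509 in 4N-2 and 0.130 ± 0.0526 in 2N-2, and 2.25 ± 0.740 in 4N-3 and 0.0185 ± 0.0320 in 2N-3 (SD, n = 3 each). Its mean was lowest among the tetraploid clones in 4N-2, but, unlike that of ABCB1, it was within 1 SD of the mean of 4N-1. SLC29A2, which encodes the nucleoside carrier ENT2, fell in all 3 pairs, with changes of -0.67, -2.14 and -1.06. SLC28A3, a concentrative nucleoside carrier gene, rose in pair 2 (2.66) and in pair 3 (1.32), and SLCO4C1, counted as lower in pair 2 (-2.62), reached 10 reads in the 3 libraries of 2N-2 and in 1 other library. Of 5 tested other exporters out of 6, the copper pump gene ATP7B rose in pair 1 (0.86, SE 0.17) and its relative ATP7A fell in pair 2 (-1.09, SE 0.22), and none passed in pair 3.

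Of 27 tested transcription factors known to act on pump genes, out of 30, the genes that rose against those that fell numbered 2 against 3 in pair 1, 3 against 10 in pair 2 and 0 against 4 in pair 3, where 9.88% and 9.15%, 19.9% and 21.3%, and 3.57% and 3.14% of all tested genes rose and fell in pairs 1, 2 and 3. EGR1, an immediate-early factor, averaged 64.4 ± 2.23 reads per M in 4N-1 and 32.7 ± 11.0 in 2N-1 and rose by 1.03 (SE 0.29). It averaged 2.74 ± 0.913 in 4N-2 and 47.4 ± 12.1 in 2N-2, and 2.67 ± 1.13 in 4N-3 and 54.6 ± 5.66 in 2N-3, and fell in both pairs, with changes of -4.08 and -4.37 (SE 0.29 each). FOXO1 fell in pair 2 (-1.33) and pair 3 (-0.97), GLI1 fell in pair 2 (-2.09) and pair 3 (-0.74), and AHR, the aryl hydrocarbon receptor, fell in pair 2 (-1.01).

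Of the 16 NRF2 targets, all tested, pair 1 had 1 gene that rose against 3 that fell, pair 2 had 1 against 7, and pair 3 had 1 against 3. For these and for the lists that follow, the shares of all tested genes that rose and fell were 9.88% and 9.15% in pair 1, 19.9% and 21.3% in pair 2, and 3.57% and 3.14% in pair 3. SLC7A11, the cystine carrier, fell in pair 2 (-1.73), TKT fell in pair 2 (-0.89) and pair 3 (-0.39), SRXN1 rose in pair 2 (0.84), and ABHD4 rose in pair 1 (0.54) and fell in pair 2 (-0.83). Of 5 tested AHR targets out of 7, none rose in any pair, and 1, 4 and 1 fell in pairs 1, 2 and 3. CYP1B1 averaged 66.3 ± 10.6 reads per M in 4N-2 and 173 ± 16.2 in 2N-2 and fell by 1.39 (SE 0.23), and NQO1, which is on both lists, fell in pair 1 (-0.62) and pair 3 (-0.71). Of 19 tested genes of glutathione synthesis and conjugation out of 21, the genes that rose against those that fell numbered 1 against 3 in pair 1, 2 against 9 in pair 2 and 0 against 3 in pair 3. The glutathione transferase genes GSTM1, GSTM2, GSTM3 and GSTM4 fell in pair 2, with changes of -1.42, -1.18, -2.16 and -1.31. GSTM3 also fell in pair 1 (-1.68) and GSTM4 in pair 3 (-0.66). They are close relatives, between which the counting could split reads. The medians of these lists in pair 2 were -0.23 for the NRF2 targets, -0.34 for the AHR targets and -0.26 for the glutathione genes, beside -0.02 over all tested genes, of which 21.3% fell.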

How the data were processed

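The authors deposited 1 table of RPKM values for 18 polyadenylated, stranded RNA-seq libraries. Per the submitters' processing notes, CASAVA 1.8.2, TopHat2, hg19 and edgeR were used; the counter, the annotation and the use of strand are not given in the sources used here. The values of a gene are whole multiples of 1 step per library, and whole reads were recovered from these steps (within 0.01 reads). The implied lengths were whole bases (within 0.1) for 9444 of 9444 genes over 1000 reads, and lay within 0.5% of the genomic span, introns included, for 86.3% of 17228 genes over 50 reads. Replicate letters, which no label ties to a day, did not enter the fit. Genes (10 reads in 3 libraries) were fitted with limma 3.58.1 (R 4.3.3, a mean per clone, trend, 18 libraries) on log2(reads per M + 0.1), two-sided. Symbols, exons and positions came from GENCODE v29 (GRCh38), matched for 52338 of 57773 identifiers. Named genes were the 9 members, up to 4 genes of a list by the largest change among those that passed in a pair, all tested neighbours, and the 5 genes most correlated with ABCB1 and with ABCC3. Members and lists were chosen with earlier results of these data known. The fit was also run on simulated data. In these, few genes differed between clones and no library stood apart, unlike in the real libraries. The alternatives were other pseudocounts, filters, scalings, limma-voom, a replicate block, no trend and left-out libraries. Protein sequences were not used here.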

Additional observations from a re-analysis of the deposited data

Results flagged for a closer look

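The 4N minus 2N change differed between pairs for 4 members, each by a test of the difference of 2 pairs in the same limma fit (Benjamini-Hochberg over all tested genes, n = 3 libraries per clone). Such differences were common: of 23416 tested genes, 4382 passed as higher and 4153 as lower for pair 1 minus pair 2. For pair 1 minus pair 3 these counts were 1138 and 1238, and for pair 2 minus pair 3 they were 3279 and 3811. ABCC3 differed between every 2 pairs: by 5.74 (SE 0.35, limma adjusted p = 2.17e-09) for pair 1 minus pair 2, by 2.00 (SE 0.35, limma adjusted p = 0.00165) for pair 1 minus pair 3 and by -3.74 (SE 0.35, limma adjusted p = 4.67e-07) for pair 2 minus pair 3. The last of these was -0.54 (limma adjusted p = 0.0693) on the scale of the deposited RPKM, with the larger added constant of 0.5. ABCG2 differed by 0.95 (SE 0.19, limma adjusted p = 0.000757) for pair 1 minus pair 2 and by -1.51 (SE 0.19, limma adjusted p = 1.19e-05) for pair 2 minus pair 3. ABCC1 differed by -0.52 (SE 0.13, limma adjusted p = 0.00623) and ABCC4 by -0.87 (SE 0.20, limma adjusted p = 0.00300) for pair 2 minus pair 3. Without both 2N-3 A and 4N-3 C these last differences were -0.36 for ABCC1 and -0.57 for ABCC4, and both still passed (limma adjusted p = 0.00148 and 1.73e-05).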

How the results depend on the processing

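Counts of passing genes moved by over 1.5 times in these cases. On the RPKM scale, with fewer genes tested (9704), 2027, 3641 and 330 genes passed in pairs 1, 2 and 3 (4457, 9662 and 1571 in the main analysis). Between clones of 1 ploidy, 4631 passed for 4N-2 minus 4N-1 (11220), 1787 for 4N-3 minus 4N-1 (3661), 3121 for 4N-2 minus 4N-3 (8391), 73 for 2N-2 minus 2N-1 (608), 79 for 2N-3 minus 2N-1 (461) and 99 for 2N-3 minus 2N-2 (814). Without both 2N-3 A and 4N-3 C, 9375 passed in pair 1, 4256 in pair 3, 10245 for 4N-3 minus 4N-1, 2354 for 2N-2 minus 2N-1, 873 for 2N-3 minus 2N-1 and 1619 for 2N-3 minus 2N-2. Leaving out each library in turn gave 2849 to 8052 in pair 1, 940 to 2889 in pair 3, 1722 to 7823 for 4N-3 minus 4N-1, 403 to 1342 for 2N-2 minus 2N-1, 263 to 1251 for 2N-3 minus 2N-1, 462 to 1597 for 2N-3 minus 2N-2, 0 to 2 across clones, 8009 to 12685 in pair 2, 9772 to 14116 for 4N-2 minus 4N-1 and 7127 to 11517 for 4N-2 minus 4N-3. The libraries behind moves of over 1.5 times were, for pair 1, 2N-1 C (2849 without it) and 2N-3 A (8052), and for pair 3, 2N-3 C (2889) and A, B and C of 4N-3 (940, 967 and 2470). Across clones it was 2N-3 C (2). For 4N-3 minus 4N-1 they were A and B of 4N-1 (2218 and 2193), 2N-3 A (7823) and A, B and C of 4N-3 (1746, 1722 and 5760). For 2N-2 minus 2N-1 they were 2N-2 B (403) and 2N-3 A (1342), for 2N-3 minus 2N-1 they were 2N-3 C (1251) and each library of 2N-1 (273, 263 and 301 without A, B and C), and for 2N-3 minus 2N-2 they were A and B of 2N-2 (465 and 462) and 2N-3 B (1597). The cause of these moves was not tested. With total reads as the library size, 34.8% of the passing genes in pair 1 were higher, against 51.9%, and on the RPKM scale 58.6% for 2N-3 minus 2N-2, against 47.4%. The share also crossed 50% on that scale in pair 2 (57.3%, against 48.3%), for 4N-2 minus 4N-1 (58.0%, against 48.9%) and for 4N-2 minus 4N-3 (53.7%, against 47.3%).

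The choice of the gene fixed the direction of the ABCB1 changes. When each library was left out, they were 3.47 to 3.61 in pair 1, 1.54 to 1.96 in pair 2 and 4.13 to 4.32 in pair 3. Their size depended more on the method: limma-voom gave 4.31, 3.33 and 5.29, against 3.56, 1.75 and 4.21 in the main analysis. The RPKM filter dropped the gene and kept only 2 of the 9 members, ABCC3 and ABCC10, so that the others have no value on that scale. Of 2754 member values under alternatives, 20 lost and 57 gained a call, 12 without a test moved beyond the spread, and 50 in 15 comparisons changed sign, none of them past the threshold before or after. Without both 2N-3 A and 4N-3 C, ABCC1, ABCC4 and ABCC5 were at -0.04, -0.05 and -0.03 in pair 3 (0.12, 0.24 and 0.24 otherwise), ABCC5 at 0.10 for 2N-3 minus 2N-1 and 0.12 for 2N-3 minus 2N-2, and ABCC10 at -0.03 for 4N-3 minus 4N-1. With total reads as the library size ABCC10 was at -0.01 for 2N-3 minus 2N-1 and -0.03 for pair 1 minus pair 3. ABCC2 across clones, at 0.00, was 0.01 with 0.02 reads per M added. The other changes of sign came when 1 library was left out, except that of ABCC1 for 2N-3 minus 2N-1 without both libraries and of ABCC2 for pair 1 minus pair 2 with 0.5 reads per M added, both to 0.00. The ranges in pair 3 were then -0.01 to 0.20 for ABCC1, -0.01 to 0.36 for ABCC4 and 0.00 to 0.37 for ABCC5. For 2N-3 minus 2N-1 they were -0.21 to 0.00 for ABCC1, -0.27 to 0.10 for ABCC5 and -0.06 to 0.15 for ABCC10, for 2N-3 minus 2N-2 -0.25 to 0.12 for ABCC5, for 2N-2 minus 2N-1 -0.09 to 0.04 for ABCC5, for 4N-3 minus 4N-1 -0.06 to 0.05 for ABCC10 and for 4N-2 minus 4N-3 -0.04 to 0.33 for ABCC2. For ABCC2 they were -0.13 to 0.07 across clones and -0.14 to 0.23 for pair 1 minus pair 2. For ABCC5 they were 0.00 to 0.37 for pair 1 minus pair 3 and -0.11 to 0.27 for pair 2 minus pair 3, and for ABCC10 -0.06 to 0.15 for pair 1 minus pair 3. No label says that replicate letters mark shared samples. Deviations of same-lettered libraries correlated by -0.228 to 0.367, and the replicate block gave 3986, 9244 and 1322 passing genes in pairs 1, 2 and 3 and changed no call of a member. Depth limits ABCB1 in the 2N clones and ABCB4 in all clones to 0 to 12 reads per library.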
